A study of Oryza sativa with 12 samples.

Results

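The comparison of the abscission zone (AZ) with the nonabscission zone (NAZ) was made within DZ129, the rice cultivar that has lost shattering. It sets the libraries of DZ129AZ, 3 in number, against the 3 libraries of DZ129NAZ. Genes were members when at least 3 of these 6 libraries reached 0.5 FPKM (fragments mapped to a gene, divided by its length and by the total of its library), which 22318 of the 35851 genes in the table did. The values next to the limit were continuous, the nearest gene outside having 0.499 FPKM in its library of rank 3. Both groups carried the wild-type genotype of DZ129, with no transgene or treatment named. The AZ was a short piece of the pedicel around the junction with the grain, and the NAZ was the remaining pedicel. Day 10 of sampling is counted from heading in the paper and from flowering in the labels. What made up a replicate (single plants or pooled pedicels) is not given in the sources used here, so p-values measure only the spread between these libraries. The other cultivar of the study, W517, shatters easily. Its groups W517AZ and W517NAZ, also with 3 libraries each, were used only for the comparison of the cultivars at the end. For both cultivars, tissues are whole pieces of pedicel, in which fewer cells of a type and less RNA per cell cannot be told apart.

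Seed shattering is the release of the ripe grain from its pedicel. It takes place in the abscission zone, a few layers of small, thin-walled cells that cross the pedicel below the grain and whose shared walls are dissolved by enzymes such as polygalacturonases and glucanases. Lignin, a polymer that stiffens cell walls, is made by the phenylpropanoid pathway and joined into the wall by laccases and peroxidases. The rest of the pedicel is a green stalk with vascular tissue through which the grain is fed. Ethylene and auxin are the hormones best known for their roles in abscission, with ethylene speeding it and auxin from the distal organ delaying it.

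Names and roles are given only where the study annotates a locus. The RefSeq table at hand matched 0 of the locus identifiers, and no sequences were printed. A table of the study describes 1160 loci, of which 535 passed the limit on FPKM in DZ129 and 360 of these had a product other than an expressed, hypothetical or transposon protein. The study chose these loci because they changed between the tissues of W517 and between the AZ of the cultivars while not being called in DZ129. The choice used the contrast described here, so small changes in DZ129 follow from it. Counts over these genes are therefore descriptions and not independent evidence of a direction, and they say little of the other genes.

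The 6 libraries held 18580586 to 20892377 reads on genes, recovered from the FPKM. At this depth, 3 reads in a gene of 1500 bp correspond to 0.0957 to 0.108 FPKM. Pearson's r of log2 values over the genes tested was 0.989 to 0.991 between libraries of the same tissue and 0.842 to 0.849 between libraries of different tissues. The actin gene LOC_Os01g71770, the internal control of the study's qRT–PCR, had 46.7, 46.6 and 43.6 FPKM in DZ129AZ and 46.6, 43.9 and 43.8 FPKM in DZ129NAZ. These groups overlapped, with a log2 fold change of 0.03 ± 0.05 (SE, n = 3 each, limma adjusted p = 0.62).

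Most genes differed between the tissues, and upregulation in DZ129AZ was more common than downregulation on the FPKM as deposited, though not after quantile normalization. Of the 22318 genes tested, 6168 were DEGs (27.6% of those tested), defined by an adjusted p under 0.05 and a change of more than 2-fold in limma on log2(FPKM + 0.1). In DZ129AZ, 3897 DEGs were upregulated (17.5%) and 2271 were downregulated (10.2%). Without the limit on size, 8905 genes were higher (39.9%) and 6629 were lower (29.7%), 69.6% in all. The median log2 fold change was 1.99 among upregulated DEGs, -1.67 among downregulated DEGs and 0.08 over all genes tested. More than 4-fold changes were found for 1929 upregulated and 801 downregulated DEGs. Beyond 16-fold, there were 276 upregulated and 15 downregulated DEGs, and beyond 32-fold, 42 and 1. The AZ and NAZ libraries did not overlap for 6131 of the 6168 DEGs, against 75.5% of all genes tested. The excess of upregulated DEGs depended on the scaling, because 63.2% of DEGs were upregulated on the FPKM as deposited and 49.9% after quantile normalization, which moved the median over the genes tested by -0.12 on the log2 scale. The paper reports more downregulated than upregulated genes for DZ129NAZ vs. DZ129AZ, and its text does not say which tissue was the reference.

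**Figure D1:**
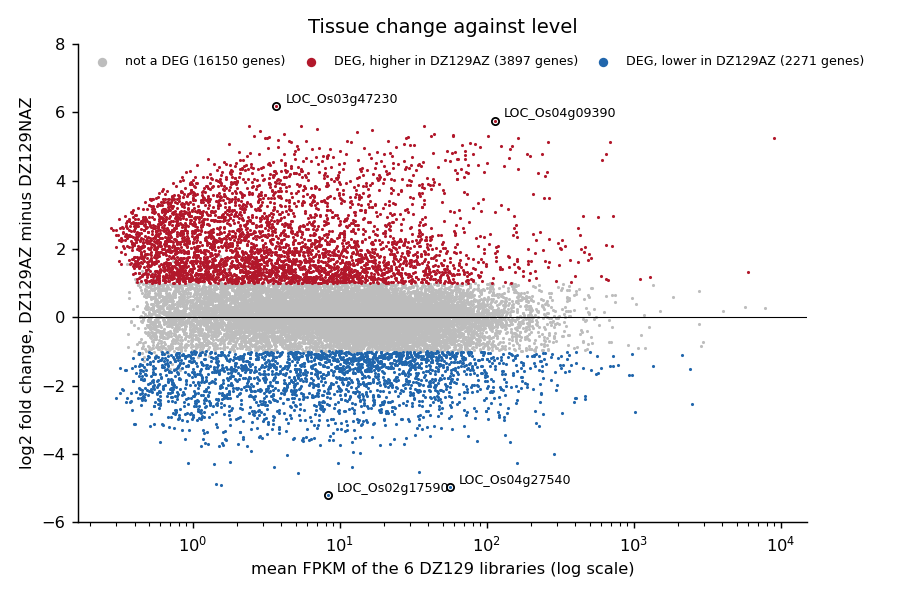
The log2 fold change of each of the 22318 genes tested, DZ129AZ minus DZ129NAZ, is plotted against its mean FPKM in the 6 DZ129 libraries on a log axis. Each point is 1 gene. On the FPKM as deposited, the 3897 upregulated DEGs reach further from 0 than the 2271 downregulated DEGs, and the circles mark the most extreme loci in each direction with at least 5 FPKM in the higher tissue.

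The loci at the extremes carry no annotation in the sources used here and are given by identifier. They were picked among DEGs whose tissues did not overlap, so the lack of overlap follows from the choice. LOC_Os04g09390 had 153.8, 288.4 and 223.1 FPKM in DZ129AZ, against 3.84, 4.53 and 3.38 FPKM in DZ129NAZ. All AZ libraries were far above all NAZ libraries, although the AZ libraries also differed among themselves, and the log2 fold change was 5.75 ± 0.18 (SE, n = 3 each, limma adjusted p = 3.5e-12). LOC_Os03g47230 had 7.49, 9.63 and 4.997 FPKM in DZ129AZ from 16 to 29 reads, and no read in any DZ129NAZ library. Set against 3 reads per library it was at least 7.84-fold higher in DZ129AZ. It reached 0.5 FPKM in DZ129AZ alone, so the filter required it to differ. In the other direction, LOC_Os04g27540 had 3.70, 3.58 and 2.86 FPKM in DZ129AZ, against 107.7, 105.5 and 114.3 FPKM in DZ129NAZ. Its libraries were tightly grouped in each tissue, and the log2 fold change was -4.98 ± 0.11 (SE, n = 3 each, limma adjusted p = 1.2e-13). LOC_Os02g17590 had 0.784, 0.209 and 0.196 FPKM in DZ129AZ, from 1 to 4 reads, and 16.1, 18.5 and 13.5 FPKM in DZ129NAZ, from 71 to 94 reads. The AZ values lay near the limit of the depth, so the size of its log2 fold change, -5.21 ± 0.34 (SE, n = 3 each, limma adjusted p = 8.6e-09), depends on few reads.

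Upregulated DEGs had a median of 3.03 FPKM over the 6 libraries, downregulated DEGs of 8.26 FPKM and all genes tested of 10.1 FPKM. Among the 2112 genes with a mean under 1 FPKM, 43.6% were upregulated and 13.9% downregulated. Among the 5851 genes between 20 and 100 FPKM, the shares were 8.53% and 9.21%, and among the 858 genes between 100 and 1000 FPKM they were 11.9% and 17.8%. The filter bears on the lowest classes, since 1221 genes reached 0.5 FPKM in every AZ library and in no NAZ library, and 340 genes did so in every NAZ library and in no AZ library. Such genes had to differ between the tissues, and they include 1170 of the 3897 upregulated and 312 of the 2271 downregulated DEGs. The shares in the low classes are therefore set in part by the filter. The upregulated DEGs took 18.1%, 18.4% and 18.3% of the reads of the DZ129AZ libraries, against 4.29%, 4.22% and 4.32% of those of DZ129NAZ. The downregulated DEGs, fewer in number, took 5.83%, 5.97% and 5.92% of the reads in DZ129AZ and 18.2%, 18.6% and 18.1% in DZ129NAZ. The share of reads on each set is a description, because the sets were called from the same libraries.

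**Figure D2:**
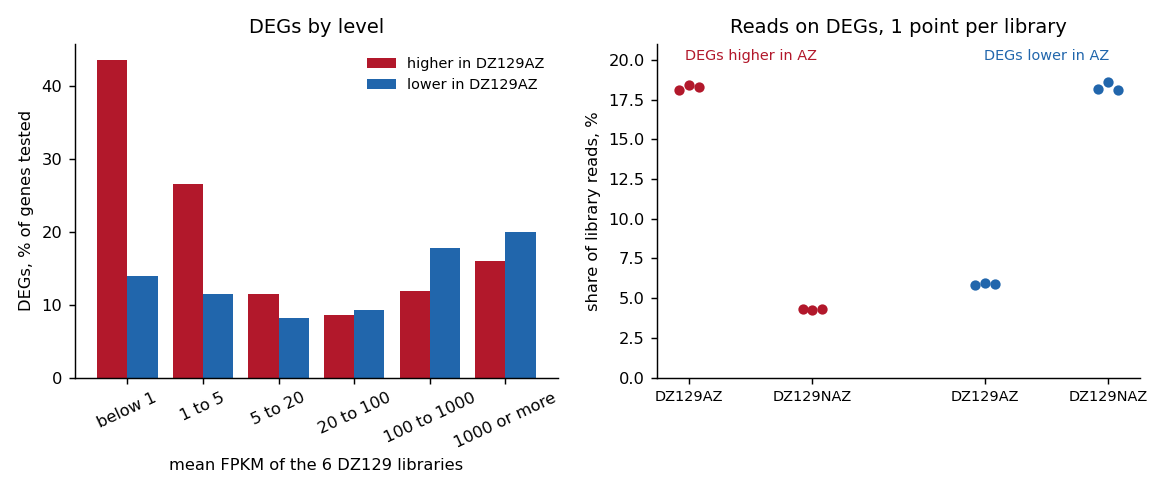
The left panel shows the percentage of genes tested that were upregulated or downregulated DEGs in DZ129AZ, by mean FPKM of the 6 DZ129 libraries. The right panel shows the percentage of each library's reads that fell on these DEGs, with 1 point per library. Upregulated DEGs make up 43.6% of genes under 1 FPKM, a class that the filter fills in part with genes that reached 0.5 FPKM only in DZ129AZ, and either set takes about 18% of the reads in the tissue where it is higher.

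Few DEGs were restricted to a tissue at this depth. Of the upregulated DEGs, 297 had at most 3 reads in every DZ129NAZ library and 25 of these had none. Their median level in DZ129AZ was 1.23 FPKM and the highest was 13.8 FPKM. Of the downregulated DEGs, 68 had at most 3 reads in every DZ129AZ library and 6 of these had none, with a median of 1.10 FPKM and a maximum of 4.41 FPKM in DZ129NAZ. Absence from a tissue cannot be shown from such counts. Gene length was similar between the sets, with medians of 1550 bp for upregulated DEGs, 1606 bp for downregulated DEGs and 1743 bp for all genes tested.

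DEGs of both directions were spread over all 12 chromosomes, which the locus identifiers give. Upregulated DEGs were between 15.8% (chromosome 11) and 19.5% (chromosome 10) of the genes tested, and downregulated DEGs between 7.93% (chromosome 3) and 13.5% (chromosome 11). As a description, with no test, downregulated DEGs stood side by side more often than their share gives. The next locus tested was also downregulated after 23.2% of downregulated DEGs, against 10.2% of all located genes, and was also upregulated after 22.9% of upregulated DEGs, against 17.5%. Runs of 5 or more adjoining loci tested numbered 15 for upregulated and 21 for downregulated DEGs. The longest run, singled out after its values were seen, held 13 adjoining downregulated loci on chromosome 11. Their log2 fold changes lay between -2.999 and -1.13 (median -2.51). The mean levels were between 0.249 and 29.8 FPKM in DZ129AZ and between 1.86 and 161 FPKM in DZ129NAZ. The groups overlapped for none of the 13, and 6131 of all 6168 DEGs had no overlap either. Near-identical copies within such a run may share reads, so the levels of single loci in it are uncertain. In W517, 8 of the 13 were also downregulated DEGs in the AZ, against 1514 of the 2271 downregulated DEGs of DZ129. The log2 fold changes of the 13 in W517 ran from -3.27 to 0.32.

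Among the loci the study names in its text, the laccase and the steroid dehydrogenase differed between the tissues of DZ129 in opposite directions. LOC_Os01g63180 (LAC7), a laccase precursor and thus of the enzyme class that joins lignin units, had 1.54, 1.42 and 1.06 FPKM in DZ129AZ, against 11.1, 14.4 and 12.9 FPKM in DZ129NAZ. Every AZ library was below every NAZ library, and its log2 fold change was -3.17 ± 0.12 (SE, n = 3 each, limma adjusted p = 3.6e-11), a 9.0-fold lower level in the AZ. LOC_Os01g63260, annotated as a 3-oxo-5-alpha-steroid 4-dehydrogenase of the kind that acts in brassinosteroid synthesis, had 6.33, 7.40 and 6.46 FPKM in DZ129AZ, against 2.43, 3.401 and 2.62 FPKM in DZ129NAZ. The groups did not overlap, and the log2 fold change was 1.24 ± 0.23 (SE, n = 3 each, limma adjusted p = 0.00025). LOC_Os03g14210, annotated as glycosyl hydrolase family 17, a family that includes callose-degrading glucanases, did not pass the limit on FPKM and was not tested. It had 0.230, 0.275 and 0.459 FPKM in DZ129AZ from 8, 9 and 16 reads, and 0.0815, 0 and 0.139 FPKM in DZ129NAZ from 3, 0 and 5 reads.

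The annotated genes of the study's table changed little in DZ129, as their choice requires. Of the 535 tested, 162 were higher and 169 lower in DZ129AZ at an adjusted p under 0.05, together 61.9%, against 69.6% of all genes tested. Only 14 were DEGs (2.62%, against 27.6%), all of them upregulated, and the median log2 fold change was 0.03. Of the 14, 10 had a product. The 7 of these with at least 5 FPKM in the AZ all lay close to the limit of 2-fold, with log2 fold changes from 1.005 to 1.08. A lack of overlap between the tissues was a condition for naming them, so it is no separate result below.

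Among these 7, LOC_Os01g44220, the large subunit of glucose-1-phosphate adenylyltransferase (ADP-glucose pyrophosphorylase), which supplies the sugar donor for starch, had 19.98, 17.6 and 16.5 FPKM in DZ129AZ, against 9.43, 8.22 and 8.55 FPKM in DZ129NAZ. LOC_Os06g41090, an anthranilate phosphoribosyltransferase of the tryptophan pathway, had 24.8, 28.9 and 28.4 FPKM in DZ129AZ, against 12.9, 12.7 and 13.03 FPKM in DZ129NAZ. Every AZ library of both genes was above every NAZ library, with log2 fold changes of 1.03 ± 0.09 and 1.08 ± 0.09 (SE, n = 3 each, limma adjusted p = 1.1e-07 and 9.5e-08). LOC_Os01g71670, a glycosyl hydrolase of family 17 like the untested locus above, had 27.9, 33.1 and 21.9 FPKM in DZ129AZ, against 13.2, 13.6 and 13.8 FPKM in DZ129NAZ. Its AZ libraries were more scattered than its NAZ libraries but did not overlap them, and the log2 fold change was 1.005 ± 0.14 (SE, n = 3 each, limma adjusted p = 1.5e-05). LOC_Os01g09030, a 2-aminoethanethiol dioxygenase, had 19.6, 19.9 and 18.1 FPKM in DZ129AZ and 9.34, 8.82 and 9.12 FPKM in DZ129NAZ. LOC_Os03g20210, an aspartic proteinase of the nepenthesin type, had 7.05, 7.75 and 7.92 FPKM in DZ129AZ and 4.29, 3.20 and 3.52 FPKM in DZ129NAZ. LOC_Os03g47270, the small secreted protein GCRP4 that is rich in glycine and cysteine, had 10.7, 14.1 and 11.3 FPKM in DZ129AZ and 4.70, 6.52 and 6.52 FPKM in DZ129NAZ. The groups of all 3 genes were apart. LOC_Os10g02920, a cytochrome b561, which carries electrons across membranes, had 7.20, 7.47 and 5.46 FPKM in DZ129AZ and 4.66, 3.20 and 1.98 FPKM in DZ129NAZ, the widest scatter among the 7 in the NAZ.

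Genes listed for photosynthesis and chlorophyll by the words of their product were lower in DZ129AZ. All 11 listed loci were tested and all 11 were lower at an adjusted p under 0.05, against 29.7% of all genes tested, but none was a DEG. Their median log2 fold change was -0.55 and the range -0.74 to -0.21. The share of all genes is not the nearest comparison, because the table was chosen on changes in W517. Of the 250 tested loci of the table that were lower in W517AZ, 151 were called lower and 23 higher in DZ129AZ. The median of these 250 in DZ129 was -0.45, so a decrease was not particular to photosynthesis. All 11 photosynthesis loci stayed lower and past the test in each of the other settings, the scalings included. LOC_Os08g10020, the 10 kDa polypeptide of photosystem II, had the highest level among the annotated genes of both tissues. It had 886, 922 and 960 FPKM in DZ129AZ, against 1302, 1343 and 1314 FPKM in DZ129NAZ, with a log2 fold change of -0.52 ± 0.04 (SE, n = 3 each, limma adjusted p = 4.5e-08). LOC_Os06g01210, plastocyanin, the copper protein that passes electrons to photosystem I, had 382, 413 and 422 FPKM in DZ129AZ, against 616, 634 and 587 FPKM in DZ129NAZ. LOC_Os04g38410, a chlorophyll A-B binding protein of the light-harvesting antenna, had 92.4, 100.9 and 96.2 FPKM in DZ129AZ, against 159.6, 168.2 and 154.3 FPKM in DZ129NAZ. In all 3 genes the tissues were apart, and LOC_Os04g38410 had the largest decrease of the list, with a log2 fold change of -0.74 ± 0.04 (SE, n = 3 each, limma adjusted p = 1.3e-09). LOC_Os01g64960, which the table pairs with the symbol PSBS of the photoprotective photosystem II subunit, had 110.2, 116.9 and 119.8 FPKM in DZ129AZ, against 183.2, 184.4 and 180.3 FPKM in DZ129NAZ. The oxygen-evolving enhancer proteins, which hold the water-splitting site, followed with log2 fold changes of -0.55 ± 0.05 for LOC_Os07g36080 and -0.60 ± 0.05 for LOC_Os07g01480 (SE, n = 3 each). The smallest decrease was that of LOC_Os09g30340, a photosystem I reaction center subunit, with 111.3, 135.6 and 130.2 FPKM in DZ129AZ and 146.3, 149.1 and 139.1 FPKM in DZ129NAZ.

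**Figure D3:**
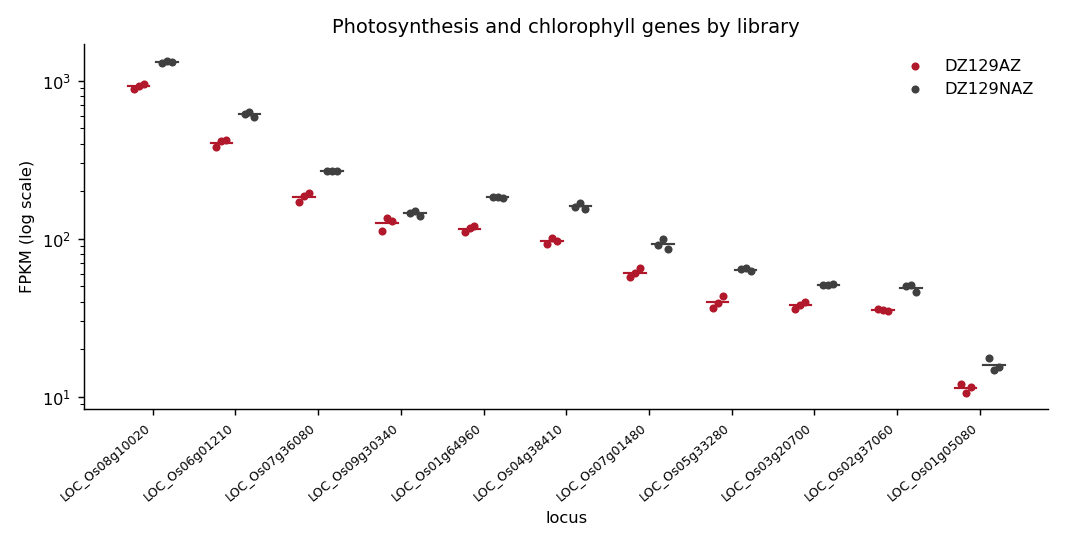
FPKM of the 11 photosynthesis and chlorophyll genes on a log axis, with 1 point per library, DZ129AZ left of DZ129NAZ for each locus, and a line at each mean of 3 libraries. For each gene all AZ libraries lie below all NAZ libraries, with the narrowest gap at LOC_Os09g30340.

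The wider groups of plastid genes in the table's gene ontology, chosen for description after their values were seen, went mostly the same way, with a few loci that were higher. So did most of the table's loci that were lower in W517AZ, as given above. Of the 9 loci with the term photosynthesis, all tested, 7 were lower, 1 was higher and 1 did not pass the test (median log2 fold change -0.35), against 39.9% higher and 29.7% lower among all genes tested. Of the 30 loci with the term thylakoid, all tested, 24 were lower, 3 higher and 3 did not pass the test (median log2 fold change -0.54). Of the 88 loci tested with the term plastid, 59 were lower and 13 higher (median -0.51). Of the 10 with the term mitochondrion, 7 were lower and 1 higher (median -0.64). Of the 9 loci tested with the term DNA metabolic process, 7 were higher and none lower (median 0.64). Of the 44 with hydrolase activity, 20 were higher, a share near that of all genes, and 6 were lower (median 0.28). The loci with the pathway starch and sucrose metabolism included 6 tested, of which 5 were higher and none lower (median 0.84). In W517 the medians of these last 3 groups were 1.33, 1.31 and 1.87. Of the 285 tested loci of the table that were higher in W517AZ, 139 were called higher and 18 lower in DZ129AZ (median 0.41). An increase was therefore not particular to these groups. For lists below that were higher in W517AZ, these 285 are a nearer comparison than all genes.

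Few genes of lignin synthesis and wall building were annotated, and they were not uniform. Of 4 loci listed for lignin and phenylpropanoids, 3 were tested and 1 was higher, against 39.9% of all genes tested. This was LOC_Os01g62480, another laccase precursor, with 1.22, 1.04 and 0.780 FPKM in DZ129AZ, against 0.461, 0.710 and 0.379 FPKM in DZ129NAZ. The groups were apart by a small gap, with a log2 fold change of 0.87 ± 0.24 (SE, n = 3 each, limma adjusted p = 0.0058), and the difference did not pass the test after quantile normalization (adjusted p = 0.50). The laccases thus differed in opposite directions, LAC7 being lower in DZ129AZ. LOC_Os01g18120, a cinnamoyl CoA reductase of monolignol synthesis, had 2.41, 1.91 and 2.72 FPKM in DZ129AZ and 1.79, 2.11 and 1.57 FPKM in DZ129NAZ, and the tissues overlapped. The third, LOC_Os04g43410, a beta-glucosidase that the table relates to monolignol glucosides, had a log2 fold change of 0.28 ± 0.23 (SE, n = 3 each, limma adjusted p = 0.29) and passed as higher in a model of the 6 DZ129 libraries alone (adjusted p = 0.027), with a pseudocount of 1 (0.04) and with voom (0.048). Of 2 loci listed for cellulose and secondary wall, a COBRA-like protein was not tested. The tested one was LOC_Os09g30120 (CSLE1), a cellulose synthase-like protein. It had 34.7, 30.5 and 32.9 FPKM in DZ129AZ, against 53.9, 55.7 and 55.8 FPKM in DZ129NAZ, with a log2 fold change of -0.75 ± 0.12 (SE, n = 3 each, limma adjusted p = 6.2e-05). Of 7 listed peroxidases, 2 were tested. LOC_Os05g14260 was a DEG at a very low level, with 0.655, 0.581 and 0.655 FPKM in DZ129AZ and 0.206, 0.274 and 0.265 FPKM in DZ129NAZ, from 4 to 12 reads. Upregulated DEGs were 17.5% of all genes tested, and LOC_Os05g14260 reached 0.5 FPKM in DZ129AZ alone. The filter therefore required it to differ between the tissues. After quantile normalization its log2 fold change was 0.026 (adjusted p = 0.92), so both the size and the call were lost.

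Of 21 loci listed by product words for enzymes that loosen or degrade walls, 4 were tested and 1 was higher, against 39.9% of all genes tested. This was the family 17 glycosyl hydrolase LOC_Os01g71670 given above. LOC_Os07g10730, a polygalacturonase that cuts pectin, had 3.22, 4.93 and 4.18 FPKM in DZ129AZ and 2.62, 2.85 and 3.75 FPKM in DZ129NAZ. The tissues overlapped, and the log2 fold change of 0.41 ± 0.31 (SE, n = 3 each, limma adjusted p = 0.26) did not pass the test, but did with the replicate number as a block (adjusted p = 0.038). The other 17 loci of this list, 8 of them with at most 3 reads in each of the 6 libraries, were too low to be tested. Among these untested loci, the word search also placed inhibitors of pectinesterase and polygalacturonase and a xyloglucan fucosyltransferase, which are not wall-degrading enzymes.

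Of 8 listed loci of auxin response, 6 were tested, 4 were higher in DZ129AZ and 1 lower (median log2 fold change 0.51), against 39.9% higher and 29.7% lower among all genes tested. After quantile normalization 2 were higher and 1 lower. LOC_Os02g35140, auxin response factor 7, a transcription factor that binds auxin-responsive promoters, had 6.47, 6.78 and 6.73 FPKM in DZ129AZ, against 3.42, 4.10 and 3.09 FPKM in DZ129NAZ. LOC_Os06g50040 (OsSAUR29), of the small auxin-up RNA family, had 9.13, 9.36 and 9.62 FPKM in DZ129AZ, against 4.73, 5.63 and 5.55 FPKM in DZ129NAZ. The AZ libraries of both were closely grouped and above the NAZ libraries, with log2 fold changes of 0.90 ± 0.11 and 0.81 ± 0.13 (SE, n = 3 each, limma adjusted p = 7.6e-06 and 7e-05). The exception, LOC_Os02g01326, an auxin-induced protein of the 5NG4 type, had the highest level of the list. It had 77.2, 82.4 and 79.8 FPKM in DZ129AZ, against 131.3, 121.7 and 131.7 FPKM in DZ129NAZ, with a log2 fold change of -0.68 ± 0.09 (SE, n = 3 each, limma adjusted p = 1.1e-05).

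Of 8 listed loci of ethylene synthesis and response, 5 were tested, with 2 higher, 2 lower and 1 not past the test. Among all genes tested, 39.9% were higher and 29.7% lower. ACC oxidases carry out the last step of ethylene synthesis. Other loci are annotated only as homologues of ACC oxidase, and the sources used here do not give their activity. The homologue LOC_Os08g30150 had 2.58, 2.58 and 2.43 FPKM in DZ129AZ, against 1.42, 1.74 and 1.53 FPKM in DZ129NAZ. The homologue LOC_Os03g64280 had 7.14, 7.35 and 8.02 FPKM in DZ129AZ, against 9.04, 9.53 and 9.24 FPKM in DZ129NAZ. The homologues thus differed in opposite directions, with log2 fold changes of 0.66 ± 0.22 and -0.30 ± 0.08 (SE, n = 3 each, limma adjusted p = 0.016 and 0.0052). Without replicate 1 of DZ129NAZ, LOC_Os08g30150 did not pass (adjusted p = 0.053), nor after quantile normalization (0.23). LOC_Os05g05670, the listed locus annotated as an ACC oxidase itself, had 16.98, 15.1 and 16.98 FPKM in DZ129AZ and 14.4, 12.6 and 14.2 FPKM in DZ129NAZ (limma adjusted p = 0.40, but 0.0096 in a model of the 6 DZ129 libraries alone, 0.0027 with the replicate block and 0.013 with voom). LOC_Os03g09170, an ethylene-responsive transcription factor, was higher, with a log2 fold change of 0.51 ± 0.11 (SE, n = 3 each, limma adjusted p = 0.0011). LOC_Os03g20790, related to ethylene-insensitive 3, the factor that turns on ethylene-responsive genes, was lower, with a log2 fold change of -0.23 ± 0.09 (SE, n = 3 each, limma adjusted p = 0.03), a call lost without replicate 1 or 2 of DZ129AZ or replicate 1 or 3 of DZ129NAZ (adjusted p 0.056 to 0.092).

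The counts of the other hormone lists stand against 39.9% higher and 29.7% lower among all genes tested. The list for abscisic acid and jasmonate held no locus annotated to abscisic acid. Its 2 tested loci, both annotated to jasmonate, were lower. LOC_Os04g22900, a jasmonate-induced protein, had 9.84, 10.99 and 10.2 FPKM in DZ129AZ, against 17.3, 17.2 and 17.9 FPKM in DZ129NAZ. LOC_Os01g27230, a 12-oxophytodienoate reductase of the enzyme family that includes a step of jasmonate synthesis, had 1.05, 1.04 and 0.903 FPKM in DZ129AZ, against 1.52, 1.42 and 1.53 FPKM in DZ129NAZ. For gibberellin, 1 of 4 tested loci was higher and none lower. This was LOC_Os05g11810, a gibberellin 2-beta-dioxygenase, an enzyme that inactivates the hormone, with 14.0, 14.1 and 13.9 FPKM in DZ129AZ and 9.25, 9.09 and 10.3 FPKM in DZ129NAZ (limma adjusted p = 0.0059). LOC_Os09g28230, annotated as a gibberellin receptor of the GID1L2 type, had 1.16, 0.619 and 0.873 FPKM in DZ129AZ and 1.10, 1.54 and 1.87 FPKM in DZ129NAZ, with a slight overlap and a limma adjusted p of 0.081. It passed as lower in a model of the 6 DZ129 libraries alone, with other pseudocounts, the replicate block, either voom setting and quantile normalization (adjusted p 0.00042 to 0.049). For cytokinin, 1 of 5 was lower and none higher. This was LOC_Os02g35180 (OsRR2), a type-A response regulator that dampens cytokinin signalling, with 26.0, 25.8 and 26.5 FPKM in DZ129AZ and 37.0, 37.7 and 35.5 FPKM in DZ129NAZ (limma adjusted p = 4e-05). LOC_Os02g51930, a cytokinin glucosyltransferase, of an enzyme class that stores the hormone as a glucoside, had 2.83, 3.79 and 3.53 FPKM in DZ129AZ and 2.33, 2.67 and 2.50 FPKM in DZ129NAZ, apart but with a limma adjusted p of 0.071. It passed as higher in the 6 DZ129 libraries alone, with other pseudocounts, the replicate block, voom, or without replicate 1 of DZ129AZ (adjusted p 0.02 to 0.042). The medians of the gibberellin and cytokinin lists, 0.29 and 0.24 on the log2 scale, changed sign after quantile normalization.

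Some histone genes were higher in DZ129AZ. Of 16 listed loci of cell division and replication, 5 were tested, and the 3 that passed, all histone genes, were higher (against 39.9% of all genes tested), with 1 higher and 1 lower after quantile normalization. LOC_Os03g02780, a core histone, had 24.8, 22.6 and 23.0 FPKM in DZ129AZ, against 12.8, 12.6 and 14.0 FPKM in DZ129NAZ, with a log2 fold change of 0.84 ± 0.15 (SE, n = 3 each, limma adjusted p = 0.00024). LOC_Os05g36280, histone H3, had 2.13, 2.76 and 2.79 FPKM in DZ129AZ and 1.01, 1.47 and 1.81 FPKM in DZ129NAZ. LOC_Os09g26340, another core histone, had 4.36, 3.11 and 5.15 FPKM in DZ129AZ and 2.58, 2.73 and 2.45 FPKM in DZ129NAZ. The tissues were apart in all 3, but the last pair did not pass after quantile normalization (adjusted p = 0.054 and 0.12). The replication protein MCM9 (LOC_Os06g11500) had 13.9, 13.8 and 13.1 FPKM in DZ129AZ and 11.8, 12.2 and 11.7 FPKM in DZ129NAZ, without overlap but with a limma adjusted p of 0.20. It passed as higher in the 6 DZ129 libraries alone, with a pseudocount of 1, the replicate block and either voom setting (adjusted p 0.00032 to 0.043).

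The grain adjoins the AZ, and its storage genes in the study's table were at or near the limit of the depth in both tissues. Storage genes that the study called in DZ129 are left out by the choice of that table. The level of grain transcripts as a whole can therefore not be read from these loci. Of 15 listed glutelin and prolamin loci, the storage proteins of the endosperm, 10 had at most 3 reads in each of the 6 libraries and 1 had none. Their summed level was 1.93 to 3.81 FPKM in DZ129AZ and 1.11 to 1.62 FPKM in DZ129NAZ. The locus tested, LOC_Os05g26750 (PROLM17), had 1.16, 0.940 and 1.29 FPKM in DZ129AZ, against 0.515, 0.546 and 0.330 FPKM in DZ129NAZ, with a log2 fold change of 1.14 ± 0.27 (SE, n = 3 each, limma adjusted p = 0.0019). The part of grain tissue in the higher starch gene LOC_Os01g44220 was not tested. The other large subunit of the same enzyme, LOC_Os08g25734, had 63.5, 62.2 and 65.2 FPKM in DZ129AZ and 67.5, 68.0 and 64.9 FPKM in DZ129NAZ, with overlap and an adjusted p of 0.19. It passed as lower with median-ratio scaling (log2 fold change -0.17, adjusted p = 0.0055) and with voom on median-ratio sizes (adjusted p = 0.0013), so the starch genes then differed in opposite directions.

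Heat shock proteins and defence proteins showed no common direction. Of 8 listed heat shock loci, 6 were tested, and 1 was higher and 1 lower, against 39.9% and 29.7% of all genes tested. The higher one, the DNAJ protein LOC_Os03g19200, had 3.91, 3.96 and 3.76 FPKM in DZ129AZ and 3.02, 2.93 and 2.95 FPKM in DZ129NAZ (limma adjusted p = 0.024). The call was lost with median-ratio scaling (adjusted p = 0.079), with quantile normalization (0.64), and without replicate 1 or 2 of DZ129AZ or replicate 2 or 3 of DZ129NAZ (0.057 to 0.064). The lower one, LOC_Os02g02410, a DnaK chaperone that refolds proteins, had 60.5, 62.6 and 58.1 FPKM in DZ129AZ, against 93.9, 99.1 and 94.6 FPKM in DZ129NAZ, with a log2 fold change of -0.67 ± 0.03 (SE, n = 3 each, limma adjusted p = 5.3e-10). Of 14 listed defence loci, 3 were tested, and LOC_Os03g46060, a thaumatin-like protein of the kind induced by pathogens, was higher. It had 16.5, 24.5 and 26.6 FPKM in DZ129AZ, against 10.1, 13.3 and 13.03 FPKM in DZ129NAZ. LOC_Os01g18860, an S-adenosylmethionine synthetase that the word search placed in this list although it is an enzyme of methionine metabolism, was lower, with 10.8, 10.3 and 11.1 FPKM in DZ129AZ and 13.2, 12.4 and 12.4 FPKM in DZ129NAZ. The chitinase CHIT3 (LOC_Os04g41680), which cuts a polymer of fungal walls, had 32.1, 37.6 and 26.6 FPKM in DZ129AZ and 34.6, 34.6 and 35.9 FPKM in DZ129NAZ, and the tissues overlapped. It passed as lower with voom on median-ratio sizes only (adjusted p = 0.0084).

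Of 35 listed transcription factors, 11 were tested, and 6 were higher and 2 lower, against 39.9% and 29.7% of all genes tested (median log2 fold change 0.29, which changed sign after quantile normalization and with a minimum of 1 FPKM). LOC_Os01g21120, with an AP2 domain, had the highest level, with 80.6, 86.9 and 92.5 FPKM in DZ129AZ, against 61.4, 69.2 and 63.1 FPKM in DZ129NAZ. LOC_Os02g46940, of the MYB family, had 1.45, 2.01 and 1.93 FPKM in DZ129AZ, against 0.874, 0.848 and 0.897 FPKM in DZ129NAZ. LOC_Os02g34970, of the NAC family (no apical meristem), was lower, with 2.62, 2.74 and 2.44 FPKM in DZ129AZ and 5.04, 4.08 and 4.51 FPKM in DZ129NAZ. The groups of these 3 genes were apart, with log2 fold changes of 0.42 ± 0.06, 0.95 ± 0.23 and -0.78 ± 0.22 (SE, n = 3 each, limma adjusted p = 3e-05, 0.002 and 0.0068).

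Of 24 listed transport loci, 15 were tested, with 6 higher and 4 lower, shares near the 39.9% and 29.7% of all genes tested (median log2 fold change 0.08, which changed sign after quantile normalization). LOC_Os04g40410, a high affinity nitrate transporter, had 15.2, 21.4 and 16.8 FPKM in DZ129AZ, against 33.3, 34.4 and 30.8 FPKM in DZ129NAZ, with a log2 fold change of -0.89 ± 0.10 (SE, n = 3 each, limma adjusted p = 2.6e-06). LOC_Os06g49250, a peptide transporter of the PTR2 type, had 123.0, 128.3 and 135.1 FPKM in DZ129AZ, against 182.0, 191.8 and 180.2 FPKM in DZ129NAZ. Other peptide and amino acid carriers of the list were higher, namely LOC_Os01g55610 (0.94 on the log2 scale), LOC_Os01g65130 (0.45) and LOC_Os06g12320 (0.86), and LOC_Os06g49240 did not pass the test (0.08). The largest increase was that of the metal cation transporter LOC_Os01g74110, with 1.58, 1.88 and 1.36 FPKM in DZ129AZ and 0.784, 0.606 and 0.877 FPKM in DZ129NAZ.

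**Figure D4:**
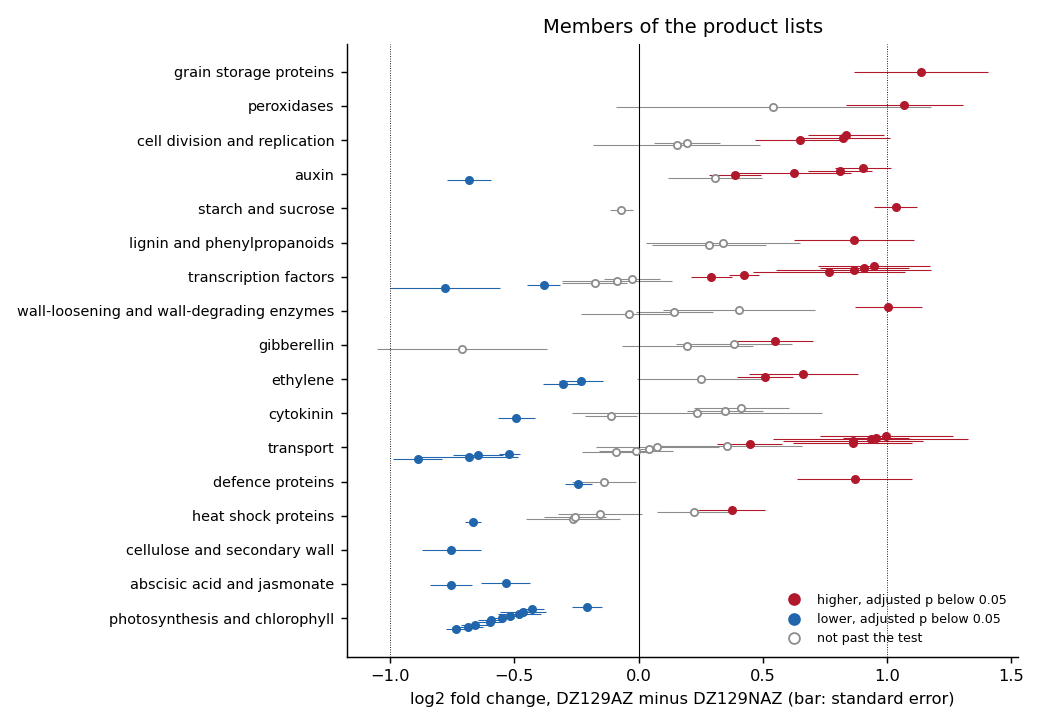
The log2 fold change, DZ129AZ minus DZ129NAZ, of each tested member of the product lists, with 1 point per gene and a bar of 1 SE from limma with 3 libraries per tissue. Filled points have an adjusted p under 0.05, and dotted lines mark a 2-fold change. The 11 photosynthesis genes all lie left of 0, and the other lists with more than 2 members have points that did not pass the test or points on both sides.

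The remaining genes of highest level with an annotated product changed modestly. LOC_Os04g38600, glyceraldehyde-3-phosphate dehydrogenase, which the table places in plastid carbon fixation, had 145.9, 156.4 and 156.4 FPKM in DZ129AZ, against 173.8, 181.0 and 169.2 FPKM in DZ129NAZ. LOC_Os05g49060, a protein of the ycf23 type, had 79.0, 82.2 and 84.5 FPKM in DZ129AZ, against 122.6, 126.7 and 122.5 FPKM in DZ129NAZ, and LOC_Os08g04180, a beta chain of tryptophan synthase, had 97.9, 99.4 and 95.2 FPKM in DZ129AZ, against 115.8, 122.6 and 122.4 FPKM in DZ129NAZ. All 3 were lower in DZ129AZ without overlap, although LOC_Os04g38600 did not pass after quantile normalization (adjusted p = 0.066). LOC_Os10g02380, an oxidoreductase of the aldo/keto reductase family, was higher, with 101.4, 113.4 and 124.5 FPKM in DZ129AZ and 75.8, 82.8 and 76.0 FPKM in DZ129NAZ (log2 fold change 0.53 ± 0.08, SE, n = 3 each, limma adjusted p = 3.9e-05). The calcium sensor OsCML1 (LOC_Os01g59530) had 96.5, 103.3 and 101.8 FPKM in DZ129AZ and 96.4, 95.6 and 99.8 FPKM in DZ129NAZ, with a limma adjusted p of 0.34, but of 0.02 after quantile normalization.

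The tissue changes of DZ129 were then set beside those of W517, which come from other libraries. Across the 22318 genes, the log2 fold changes of the cultivars had a Pearson's r of 0.81 and a Spearman's rho of 0.78, as a description over genes that are not independent. Of the upregulated DEGs of DZ129, 3031 were also upregulated DEGs in W517AZ, 847 were no DEGs in W517 and 19 were DEGs in the opposite direction. Of the downregulated DEGs, these numbers were 1514, 728 and 29. The DEGs of the same direction in both cultivars were 73.7% of the 6168 DEGs of DZ129 and 64.4% of the 7061 DEGs of W517 among the same genes. The difference between the cultivars, tested as an interaction, passed an adjusted p of 0.05 for 9827 genes (44.0% of those tested) and for 3108 of the 6168 DEGs (50.4%). DEGs of DZ129 that were no DEGs in W517 did not all differ between the cultivars, since the interaction passed for 77.2% of the upregulated and 78.8% of the downregulated ones. Among the 22318 genes, 462 had no read in any of the 6 W517 libraries, and these account for 93 of the 847 upregulated and 88 of the 728 downregulated DEGs that were no DEGs in W517. LOC_Os02g17590, the most strongly downregulated locus above, was among them, so its tissue change has no counterpart in W517.

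**Figure D5:**
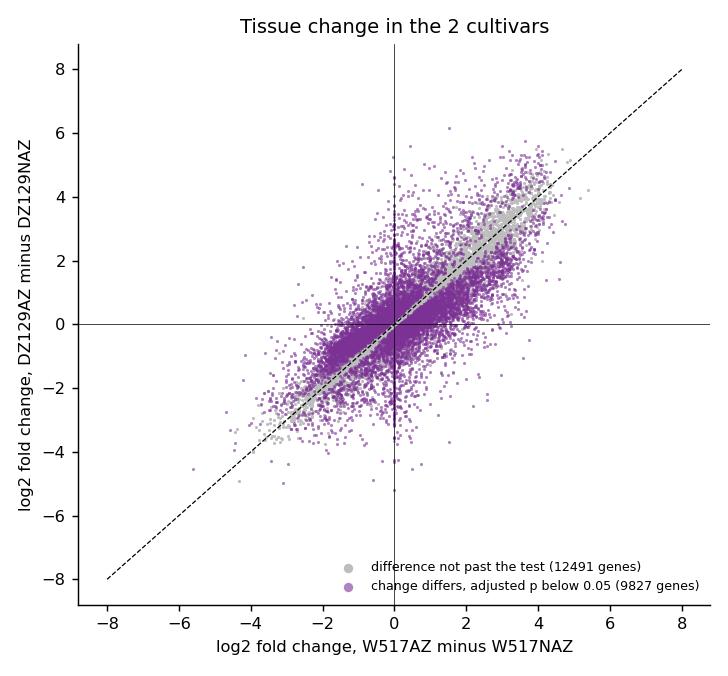
The log2 fold change of each gene tested in DZ129, AZ minus NAZ, is plotted against that in W517, with 1 point per gene and a dashed line of equal change. Coloured points are the 9827 genes whose change differed between the cultivars at an adjusted p under 0.05. The points spread along the line, and those at 0 on the horizontal axis include genes with no read in W517.

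For the named genes, the tissue change was mostly in the same direction in both cultivars and smaller in DZ129, a pattern that the choice of the annotated genes fixes in part. The photosynthesis genes had a median log2 fold change of -0.55 in DZ129 and -1.37 in W517, and the interaction passed for all 11. LAC7 was lower in the AZ of both cultivars, with log2 fold changes of -3.17 in DZ129 and -4.06 in W517 and a difference of 0.89 ± 0.17 (SE, limma adjusted p = 0.00099). After quantile normalization this difference was 0.01 (adjusted p = 0.97). Of the 285 annotated genes tested that were higher in W517AZ, 18 were called lower in DZ129AZ. Of the 250 that were lower in W517AZ, 23 were called higher in DZ129AZ. The following genes of opposite direction were named after their values were seen. The proteinase LOC_Os03g20210 was higher in DZ129AZ by 1.03 and lower in W517AZ by -1.34 on the log2 scale. The Bowman-Birk trypsin inhibitor BBTI7 (LOC_Os01g03390), of a family that blocks digestive proteases, had 51.9, 59.7 and 61.5 FPKM in DZ129AZ, against 28.2, 29.2 and 30.2 FPKM in DZ129NAZ, while its mean was 24.8 FPKM in W517AZ and 52.9 FPKM in W517NAZ. The aldo/keto reductase LOC_Os10g02380 had log2 fold changes of 0.53 in DZ129 and -2.11 in W517, and the metal cation transporter LOC_Os01g74110 of 0.998 in DZ129 and -1.64 in W517. The DnaK chaperone LOC_Os02g02410 went the other way, with -0.67 in DZ129 and 1.24 in W517. The interaction passed for all 5, with limma adjusted p from 4.3e-11 to 9.2e-05.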

How the data were processed

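RNA of both pedicel tissues was sequenced in both cultivars, with 3 libraries per group. The study's methods name stranded mRNA libraries, trimming by Trimmomatic, mapping by HISAT2 to the rice genome MSU-RGAP 7.0, and Cufflinks for FPKM. Versions are not given in the sources used here. The authors deposited FPKM in 1 column per library, with no column left unused. Whole reads were recovered from the FPKM for 100% of the 35851 genes (tolerance 0.01 read, lengths 150 to 20000 bp allowed) and served for depth and for alternative tests.

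Genes reaching 0.5 FPKM in 3 or more of the 6 DZ129 libraries were tested with the limma-trend method (limma version 3.58.1, R version 4.3.3) on log2(FPKM + 0.1), in 1 model of the 12 libraries, which share 1 estimate of the spread. Fold changes are on this scale and understate those of low genes. Adjusted p-values are those of Benjamini and Hochberg over all genes tested. Folds against no read were computed against 3 reads per library. Each SE is that of limma and rests on the spread between the libraries, while the floors of 3 reads cover counting error only. The procedure was also run on simulated data in which few genes changed. Most genes differ in the real data, so that run does not bear on the scaling. Tables and plots were made in Python 3.11.15 (pandas 2.3.3, numpy 2.4.6, matplotlib 3.10.9, scipy 1.17.1).

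Product names came from the readable 1160 rows of a table of the study, and lists were formed by words in the product. Named were the annotated DEGs with the largest changes and, whatever their annotation, the 2 highest and 2 lowest DEGs. Both kinds had at least 5 FPKM in the higher tissue and no overlap. Also named were the 10 annotated genes of highest level per tissue and the loci in the study's text. List members with the largest changes or highest levels completed the choice. The members, lists and tests were chosen with earlier results of these data known. Alternatives were pseudocounts of 0.5 and 1, other filters, median-ratio and quantile scaling, the 6 DZ129 libraries alone, the replicate number as a block, limma voom on recovered reads, and leaving out each library. Association mapping, breaking strength, microscopy and qRT–PCR were not analysed here.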

Additional observations from a re-analysis of the deposited data

Results flagged for a closer look

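The tissue change differed between the cultivars for 58 of the 67 named genes, by the interaction in limma at an adjusted p under 0.05, against 44.0% of all genes tested. For the genes of the study's table this is no independent finding, since the table was chosen on calls in W517 and their lack in DZ129. All values that follow are the log2 fold change, AZ minus NAZ, of DZ129 less that of W517.

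Among the loci at the extremes, the difference was 2.11 for LOC_Os04g09390, 4.66 for LOC_Os03g47230, -5.21 for LOC_Os02g17590, which had no read in W517, and -1.89 for LOC_Os04g27540. Among the loci of the study's text it was 0.89 for the laccase LAC7 (LOC_Os01g63180), -0.85 for the steroid dehydrogenase LOC_Os01g63260 and 0.22 for the actin gene LOC_Os01g71770. The value of LOC_Os01g63260 did not pass with pseudocounts of 0.5 or 1, with median-ratio or quantile scaling, or with voom.

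The genes of photosynthesis were lower in the AZ of both cultivars, less so in DZ129. The difference was 0.90 for LOC_Os08g10020, 0.78 for plastocyanin (LOC_Os06g01210), 0.81 for LOC_Os07g36080, 0.69 for LOC_Os07g01480 and 0.29 for LOC_Os04g38410. It was 1.01 for LOC_Os01g64960, 0.82 for LOC_Os09g30340, 0.63 for LOC_Os03g20700 and 0.92 for LOC_Os05g33280. Other genes of high level had differences of 0.89 (LOC_Os04g38600), 2.63 (LOC_Os10g02380), 1.24 (OsCML1, LOC_Os01g59530), 0.61 (LOC_Os08g04180) and 1.18 (LOC_Os05g49060).

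Genes of the wall and of lignin differed in both directions. The value was 1.59 for LOC_Os01g18120, -2.54 for the laccase LOC_Os01g62480, -2.24 for LOC_Os04g43410, a beta-glucosidase that the table relates to monolignol glucosides, and 1.57 for CSLE1 (LOC_Os09g30120). It was -2.28 and 2.69 for the peroxidases LOC_Os05g14260 and LOC_Os07g44600, -1.20 for the polygalacturonase LOC_Os07g10730 and -0.51 for LOC_Os01g71670.

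Among hormone genes, it was 1.19 for LOC_Os02g01326 and -0.67 for OsSAUR29 (LOC_Os06g50040). For ethylene it was -0.68 for LOC_Os03g09170, -1.15 for LOC_Os08g30150, 1.17 for LOC_Os03g64280, -1.44 for LOC_Os05g05670 and 0.76 for LOC_Os03g20790. It was -1.25 for LOC_Os05g11810, 0.37 for OsRR2 (LOC_Os02g35180), -3.24 for the cytokinin glucosyltransferase LOC_Os02g51930, 0.81 for LOC_Os04g22900 and 0.74 for LOC_Os01g27230.

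Among the other named genes, it was 2.37 for LOC_Os03g20210, -1.48 for LOC_Os01g44220, -0.77 for LOC_Os01g09030, -0.96 for LOC_Os06g41090, -1.22 for MCM9 (LOC_Os06g11500) and -2.10 for LOC_Os08g25734. It was -1.91 for LOC_Os02g02410, -0.68 for the DNAJ protein LOC_Os03g19200, -0.90 for LOC_Os03g46060, -1.53 for LOC_Os01g18860 and -1.72 for CHIT3 (LOC_Os04g41680). It was -1.03 for LOC_Os02g46940, -1.20 for LOC_Os01g21120, 2.63 for LOC_Os01g74110, 1.03 for LOC_Os04g40410, 0.61 for LOC_Os06g49250 and 2.06 for BBTI7 (LOC_Os01g03390).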

How the results depend on the processing

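The count of 6168 DEGs stayed within 1.5 times under every alternative, from 4383 (pseudocount 1) to 7759 (no filter), and from 6108 to 6184 when single libraries were left out. The genes with a different tissue change between the cultivars numbered 9096 to 9731 when single libraries were left out and 9336 to 10803 otherwise. Same-numbered AZ and NAZ libraries did not deviate together (r of 0, 0.024 and -0.027), so the numbers were not taken as pairs. With the replicate block there were 6191 DEGs, 3912 higher and 2279 lower, and 9336 genes with a different change. With median-ratio scaling 59.1% of DEGs were higher, against 63.2%.

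The median log2 fold changes of the small lists moved more, and the cause was not tested. With quantile normalization they were 0.003 (lignin), 0.046 (peroxidases), 0.13 (auxin), -1.18 (jasmonate), 0.36 (cell division), 0.67 (storage proteins) and -0.34 (heat shock). Other lists reversed, to -0.015 (wall enzymes), -0.54 (gibberellin), -0.28 (cytokinin), -0.10 (transcription factors) and -0.14 (transport). With median-ratio scaling and with voom on median-ratio sizes the medians were -0.85 and -0.85 (cellulose), 0.16 and 0.16 (ethylene), and -0.74 and -0.77 (jasmonate). In the same settings they were -0.65 and -0.65 (photosynthesis), 0.39 and 0.39 (starch) and -0.30 and -0.30 (heat shock). With pseudocounts of 0.5 and 1 they were -0.57 and -0.51 (jasmonate) and 0.76 and 0.54 (storage proteins). With a pseudocount of 1 other medians were 0.36 (peroxidases) and 0.31 (auxin). With a minimum of 1 FPKM the transcription factors reversed to -0.03.

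Among single genes, values near 0 reversed without a call: LOC_Os01g71770 (-0.067 with median-ratio scaling and -0.068 with voom on such sizes), LOC_Os01g59530 (-0.048 and -0.049) and LOC_Os01g18120 (-0.087, quantile). The difference between the cultivars reversed for LOC_Os02g34970 (-0.09, pseudocount 1), LOC_Os03g47270 (0.032), LOC_Os09g28230 (-0.16), LOC_Os01g27230 (-0.12) and LOC_Os03g02780 (0.047) with quantile normalization, and for LOC_Os10g02920 (0.083) without replicate 1 of DZ129NAZ. At this depth, genes under about 0.1 FPKM rest on 3 reads or fewer.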
